A study of Mus musculus with 2 samples.

Results

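The genes described here are 35 genes of macrophages, other phagocytes and platelets, measured in cultures of mouse embryonic fibroblasts. They were chosen by symbol: each probe set of the array that the platform annotation ties to 1 gene symbol was taken if that symbol was among the 35, with Emr1 read as the older symbol of Adgre1. All 35 had a value, each from 1 probe set, out of 19938 genes and 35557 probe sets in all. The study compared fibroblasts of the genotype MatDup.dist7 with fibroblasts of the genotype PatDup.dist7, both taken at 13.5 days post coitum. In the first both copies of distal chromosome 7 come from the mother and in the second both come from the father. The cultures were primary embryonic cells grown in serum-containing medium. The labels do not say how many embryos entered each culture, which passage was used or whether cells were sorted. Each genotype was measured on 1 Affymetrix array, so there was no replicate and no test between genotypes. All values describe these arrays.

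Macrophages are tissue-resident phagocytes that in the embryo arise first from the yolk sac and later from fetal liver precursors. Their survival depends on the receptor encoded by Csf1r, and their identity on the transcription factor PU.1, encoded by Spi1. They clear dying cells through scavenger and Fc receptors and make complement C1q and lysozyme. Primary fibroblasts are prepared from whole minced tissue, and resident macrophages can be carried into the dish with them. A bulk array cannot tell fewer cells of a type apart from less of a transcript per cell.

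Intensities are linear probe set values. A difference is the MatDup.dist7 value minus the PatDup.dist7 value after log2(intensity + 16), so that 1 is 2-fold. A gene counted as above the signal filter where its higher value passed 66.4, the median of all probe set values, and 12733 genes did so. The median difference over all genes was 0.02. Among genes above the filter with several probe sets, the difference varied between probe sets of the same gene with a standard deviation of 0.43 (1931 probe sets of 724 genes), which holds no variation between cultures. The cultures are labelled as fibroblasts. Vim, an intermediate filament gene of mesenchymal cells, had 11913 in MatDup.dist7 cells and 11542 in PatDup.dist7 cells. Of 14 fibroblast genes, 13 lay above the median intensity on each array. Lum lay under it, with 51.7 in MatDup.dist7 cells and 52.7 in PatDup.dist7 cells. Pdgfra stood at the 59.2nd percentile of the MatDup.dist7 array and the 53.2nd of the PatDup.dist7 array. The share of other cells in the cultures was not tested. Sex-linked transcripts differed too: Xist was listed at 0.00166 in MatDup.dist7 and had 91.2 in PatDup.dist7, and the Y-linked Eif2s3y had 112 in MatDup.dist7 against 6.44 in PatDup.dist7. Sex and genotype therefore cannot be told apart.

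Most probe sets of the 35 genes lay above the median intensity in both cultures. Of the 35 genes, 31 lay above the median intensity on the MatDup.dist7 array, 29 on the PatDup.dist7 array and 28 on both. For all measured genes these numbers were 11814 in MatDup.dist7 cells and 11442 in PatDup.dist7 cells of 19938. The middle gene of the 35 stood at the 77.9th percentile of the probe sets on the MatDup.dist7 array and the 80.3rd on the PatDup.dist7 array. Their intensities ran between 30.7 and 1711 in MatDup.dist7 and between 13.1 and 1586 in PatDup.dist7, and no value was under 1. Folr2, Cd14 and Ms4a7 were the genes under the signal filter, and the other 32 passed it.

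Between the genotypes 1 gene, the platelet chemokine gene Ppbp, was higher by 2-fold or more in MatDup.dist7 cells. Another 3 were higher by 2-fold or more in PatDup.dist7 cells: the platelet chemokine gene Pf4 and the scavenger receptor genes Mrc1 and Msr1. Of the 35 genes, 2.86% thus passed 2-fold in the direction of MatDup.dist7 and 8.57% in the direction of PatDup.dist7, against 4.47% and 3.16% of all measured genes. With so few genes each of them moves the share by 2.86%. All 4 lay above the signal filter, where the background was 2.74% for MatDup.dist7 and 2.42% for PatDup.dist7. The filter takes the higher of both values, so Ppbp passed it only through the MatDup.dist7 array and Mrc1 only through the PatDup.dist7 array, and nothing is read from the filtered counts. By sign, 16 genes were higher in MatDup.dist7 cells and 19 in PatDup.dist7 cells. The share with a negative difference was 54.3%, against 48.6% of all genes. The median difference was -0.25, and without the platelet chemokine genes it was also -0.25. The summed intensity of the 35 genes was 14559 in MatDup.dist7 cells and 16080 in PatDup.dist7 cells. That of the 14 fibroblast genes was 43173 in MatDup.dist7 cells and 51574 in PatDup.dist7 cells, so both sums were lower in MatDup.dist7. The sum over all genes was lower there too, with 4.70e+06 in MatDup.dist7 cells and 4.87e+06 in PatDup.dist7 cells. Such sums are carried mainly by the brightest probe sets.

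**Figure D1:**
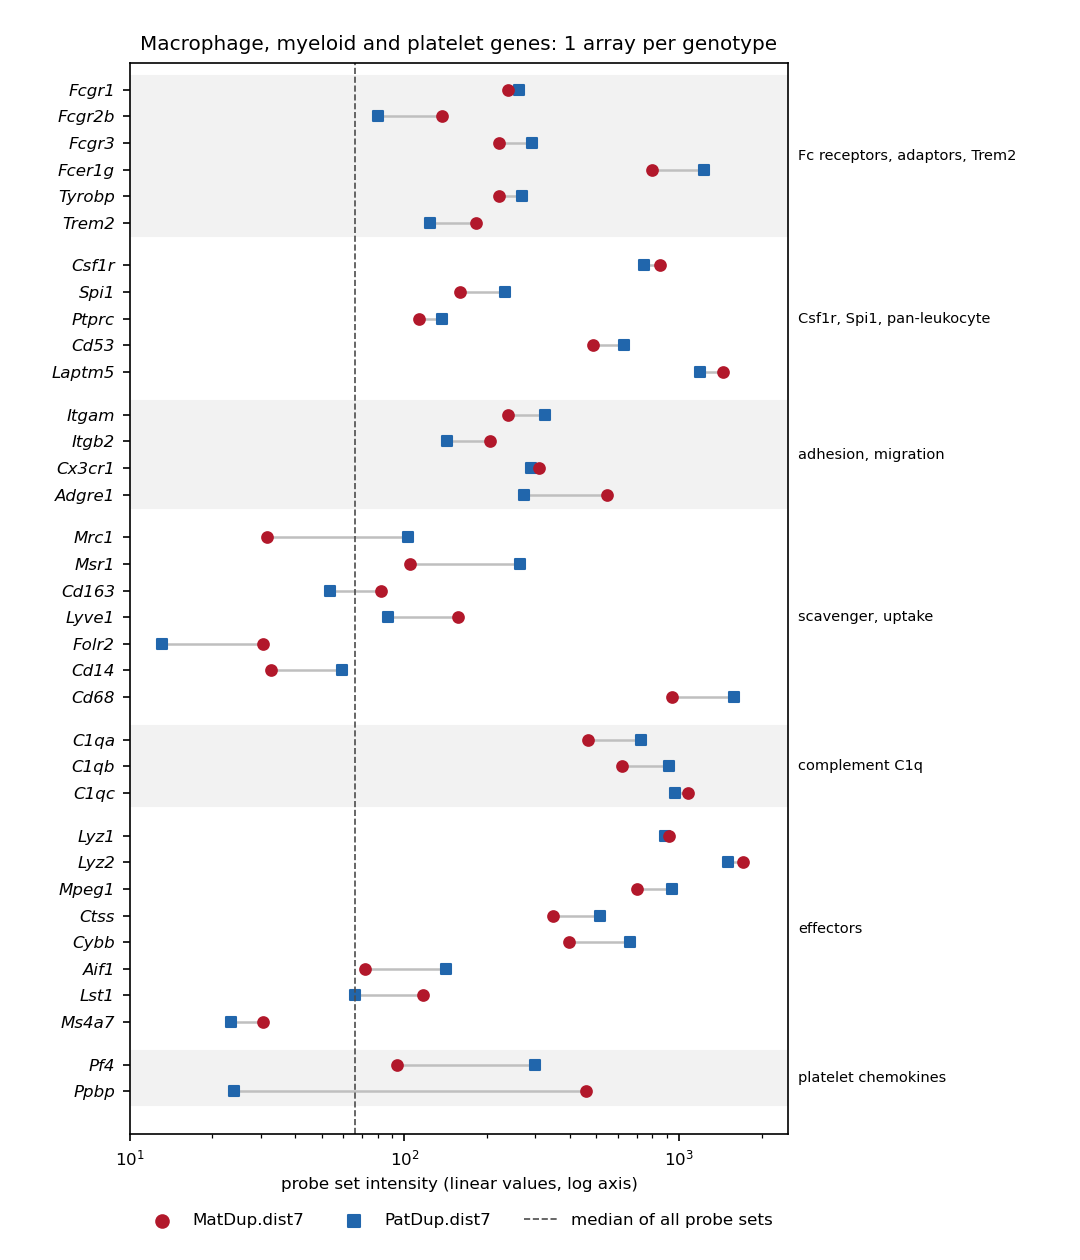
Intensity of each of the 35 genes on the MatDup.dist7 array (circles) and the PatDup.dist7 array (squares), on a log axis, grouped by role; the dashed line is the median of all probe sets, 66.4. Most pairs lie right of the line and close together, and Ppbp, Mrc1 and Pf4 show the widest gaps beside Msr1 and Folr2.

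The differences within the set went both ways and were wider than over all genes. The median absolute difference was 0.50 for the 35 genes, 0.38 for all genes and 0.35 for those above the filter. For the 47 other macrophage genes described below it was 0.35, so the wider spread was not a trait of macrophage genes at large. Over the other lists it ran from 0.22 for erythroid genes to 0.67 for growth factors and myeloid transcription factors. Of the 35 genes, 20 lay within 1.5-fold, which is 57.1%, against 72.1% of all genes and 76.8% of those above the filter. The other 15 comprised 6 genes higher in MatDup.dist7 cells and 9 higher in PatDup.dist7 cells.

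**Figure D2:**
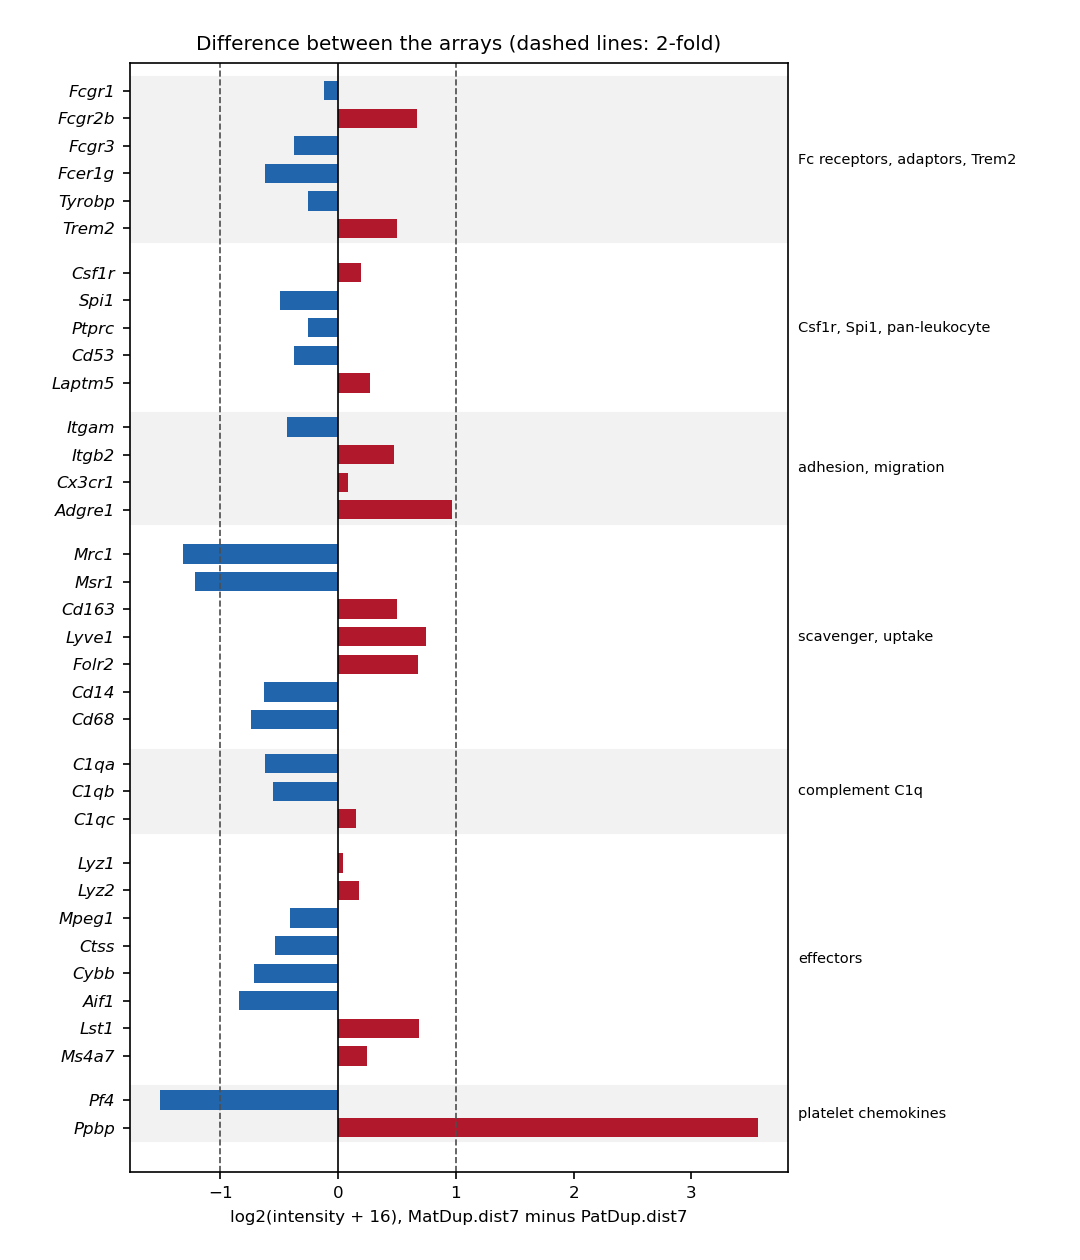
Difference of each gene between the arrays, MatDup.dist7 minus PatDup.dist7 on the log2(intensity + 16) scale, grouped by role; bars to the right are higher in MatDup.dist7 and dashed lines mark 2-fold. Ppbp reaches 3.57, while Pf4, Mrc1 and Msr1 pass the line on the other side.

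Csf1r, Spi1 and the pan-leukocyte genes differed by less than 1.5-fold. Csf1r (probe set 10456071, chromosome 18), the receptor for the growth factors CSF1 and interleukin-34, had 855 in MatDup.dist7 cells and 746 in PatDup.dist7 cells, a log2 difference of 0.19. Spi1 (10473809, chromosome 2) had 160 in MatDup.dist7 cells and 232 in PatDup.dist7 cells (-0.49). These genes stood on opposite sides of 0. Ptprc, which encodes the leukocyte phosphatase CD45, had 113 in MatDup.dist7 cells and 137 in PatDup.dist7 cells (-0.25). Cd53, a leukocyte tetraspanin gene, had 485 in MatDup.dist7 cells and 633 in PatDup.dist7 cells (-0.37). Laptm5, a lysosomal membrane protein gene of blood cells, had 1450 in MatDup.dist7 cells and 1196 in PatDup.dist7 cells (0.27). None of these 5 reached 1.5-fold, and their summed intensity was 3063 in MatDup.dist7 cells and 2944 in PatDup.dist7 cells.

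Adhesion and migration genes were mostly higher in MatDup.dist7. Adgre1 (10446282, chromosome 17), which encodes the mouse macrophage marker F4/80, had 548 in MatDup.dist7 cells and 273 in PatDup.dist7 cells, a log2 difference of 0.96, just short of 2-fold on this scale. It is among the 35 genes the one nearest to the threshold from below. The ratio of its plain intensities was 2.01, and it passed 2-fold with a pseudocount of 1 or with values floored at their 25th percentile. The partners of the complement receptor CR3 differed in opposite directions. Itgam, its alpha chain, had 238 in MatDup.dist7 cells and 326 in PatDup.dist7 cells (-0.43). Itgb2, the beta chain shared by the leukocyte integrins, had 205 in MatDup.dist7 cells and 143 in PatDup.dist7 cells (0.47). Cx3cr1, the fractalkine receptor gene of monocytes and microglia, was nearly level, with 308 in MatDup.dist7 cells and 290 in PatDup.dist7 cells (0.08).

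The 6 genes among the 35 for Fc receptors, Trem2 and immunoreceptor adaptors all stayed within 2-fold. The adaptor chains themselves were lower in MatDup.dist7. Fcer1g, the signalling gamma chain of activating Fc receptors, had 797 in MatDup.dist7 cells and 1232 in PatDup.dist7 cells (-0.62). Tyrobp, the adaptor DAP12, had 221 in MatDup.dist7 cells and 268 in PatDup.dist7 cells (-0.26). Trem2, a lipid-sensing receptor that pairs with DAP12, differed the other way, with 182 in MatDup.dist7 cells and 124 in PatDup.dist7 cells (0.50). The Fc receptor genes for IgG did not share a direction. The activating receptor gene Fcgr3 had 221 in MatDup.dist7 cells and 291 in PatDup.dist7 cells (-0.37). The activating receptor gene Fcgr1 had 239 in MatDup.dist7 cells and 261 in PatDup.dist7 cells (-0.12). Fcgr2b, the inhibitory receptor gene, had 137 in MatDup.dist7 cells and 80.2 in PatDup.dist7 cells (0.67). Fcgr2b and Fcgr3 have closely similar extracellular parts, so signal shared between their probe sets cannot be told apart here.

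Scavenger and uptake receptors held the widest spread among the macrophage genes, with none of 7 past 2-fold in the direction of MatDup.dist7 and 2 past it in that of PatDup.dist7, beside 4.47% and 3.16% of all genes. Mrc1 (10469358, chromosome 2), the mannose receptor CD206, had 31.7 in MatDup.dist7 cells and 103 in PatDup.dist7 cells, a log2 difference of -1.32. It stood at the 31.7th percentile of the MatDup.dist7 array and the 61.2nd of the PatDup.dist7 array. Msr1 (10578264, chromosome 8), the class A scavenger receptor that takes up modified lipoproteins, had 104 in MatDup.dist7 cells and 264 in PatDup.dist7 cells (-1.21). Whether they passed 2-fold depended on the treatment of low signals. With a pseudocount of 64 the difference was -0.80 for Mrc1 and -0.96 for Msr1, both short of 2-fold. Cd68 (10387536, chromosome 11), a glycoprotein of macrophage lysosomes, had 944 in MatDup.dist7 cells and 1586 in PatDup.dist7 cells (-0.74). Cd14, the co-receptor for bacterial lipopolysaccharide, had 32.7 in MatDup.dist7 cells and 59.4 in PatDup.dist7 cells (-0.63), both under the filter.

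The remaining uptake receptors were higher in MatDup.dist7, each by less than 2-fold on the log2(intensity + 16) scale. In mouse tissues Lyve1, Folr2 and Cd163 are known as markers of perivascular resident macrophages. Lyve1, a hyaluronan receptor gene, had 157 in MatDup.dist7 cells and 87.1 in PatDup.dist7 cells (0.75). Folr2, a folate receptor gene, had 30.7 in MatDup.dist7 cells and 13.1 in PatDup.dist7 cells (0.68), and reached 1.17 with a pseudocount of 1. Cd163, the receptor for haemoglobin bound to haptoglobin, had 82.1 in MatDup.dist7 cells and 53.5 in PatDup.dist7 cells (0.50). Mrc1, often used beside them for the same cells, differed in the opposite direction. Lyve1 also marks lymphatic endothelium. Of 10 endothelial genes, 6 were higher in MatDup.dist7 cells and 4 in PatDup.dist7 cells, and 3 lay above the filter. Their summed intensity was 561 in MatDup.dist7 cells and 531 in PatDup.dist7 cells, and none was at 0. The 1 gene past 2-fold was Esam, under the filter, with 22.6 in MatDup.dist7 cells and 0.00156 in PatDup.dist7 cells. With a pseudocount of 64, and with probe sets under 1 left out, 0 of the endothelial genes passed 2-fold. With a pseudocount of 1 the number was 3, and with values floored at their 25th percentile it was 2. Their part in the Lyve1 value was not tested.

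The promoters of Mrc1 and Cd68, both lower in MatDup.dist7, are shown because PU.1, the product of Spi1, recognises a purine-rich core that was searched as the letters GAGGAA on both strands. Each window runs from 250 bases before to 50 bases after the annotated gene start (RefSeq, GRCm38.p6), 5′ to 3′ on the gene's strand, with matches in capitals. The Mrc1 window is chr2:14229164-14229463 on the plus strand and holds 3 matches, all on the reverse strand. The Cd68 window is chr11:69666121-69666420 on the minus strand and holds 2 matches.
Mrc1: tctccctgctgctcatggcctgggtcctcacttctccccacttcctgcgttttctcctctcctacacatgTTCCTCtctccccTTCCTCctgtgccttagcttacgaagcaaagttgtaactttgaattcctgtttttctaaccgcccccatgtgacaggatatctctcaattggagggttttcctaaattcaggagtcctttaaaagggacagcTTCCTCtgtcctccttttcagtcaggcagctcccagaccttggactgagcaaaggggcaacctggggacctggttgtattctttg
Cd68: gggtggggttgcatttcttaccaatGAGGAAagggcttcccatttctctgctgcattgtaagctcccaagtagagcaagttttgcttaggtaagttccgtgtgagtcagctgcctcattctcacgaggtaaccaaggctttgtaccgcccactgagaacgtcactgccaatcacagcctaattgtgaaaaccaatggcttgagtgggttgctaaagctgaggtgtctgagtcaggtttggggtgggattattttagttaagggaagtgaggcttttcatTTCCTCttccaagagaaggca
Of the 35 genes, 25 had a promoter in the table, and 16 of these held the core at least once, against 8446 of all 27025 genes there (31.3%). By window, 17 of 29 (58.6%) held it, against 28.3% of 32851 windows, some windows of 1 gene overlapping each other. Itgam held 3 matches like Mrc1, and Ppbp held none. Matches occurred in genes of both directions, but more often in those lower in MatDup.dist7. Among genes with a window, Fcer1g and Mpeg1 were the only ones lower in MatDup.dist7 that held none. Of those higher in MatDup.dist7, Laptm5, C1qc, Trem2 and Ms4a7 held a match. Fcgr2b, Cd163, Folr2, Cx3cr1, Lyz1, Lyz2 and Ppbp, also higher there, held none. Whether matches go with direction was not tested. A match shows only that the letters occur in the window.

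Complement C1q, the recognition molecule of the classical pathway, is built from equal numbers of 3 chains encoded side by side on chromosome 4. C1qa had 467 in MatDup.dist7 cells and 728 in PatDup.dist7 cells (-0.62), and C1qb had 621 in MatDup.dist7 cells and 919 in PatDup.dist7 cells (-0.56). C1qc had 1075 in MatDup.dist7 cells and 965 in PatDup.dist7 cells (0.15). The A and B chains were thus lower in MatDup.dist7 by similar amounts, while the C chain was slightly higher. All 3 had high intensities on both arrays, at percentiles between 88.2 and 95.2 of the probe sets.

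Effector genes of the granule, phagosome and cytoplasm included the smallest difference of the set. Lyz1 (10372652) had 918 in MatDup.dist7 cells and 892 in PatDup.dist7 cells (0.04), and Lyz2 (10372648), the main lysozyme gene of mouse macrophages, had 1711 in MatDup.dist7 cells and 1509 in PatDup.dist7 cells (0.18). These neighbours on chromosome 10 are close copies, so each probe set may hold signal of both. Of the 8 effector genes, 4 were higher in MatDup.dist7 cells and 4 in PatDup.dist7 cells, each within 2-fold. Cybb, the catalytic subunit of the phagocyte oxidase, had 398 in MatDup.dist7 cells and 661 in PatDup.dist7 cells (-0.71). It is the only X-linked gene of the 35, on arrays that differ in Xist. Ctss, a lysosomal protease that trims the invariant chain, had 349 in MatDup.dist7 cells and 514 in PatDup.dist7 cells (-0.54). Mpeg1, which encodes the pore-forming protein perforin-2, had 706 in MatDup.dist7 cells and 941 in PatDup.dist7 cells (-0.41). The smaller immune genes Aif1 and Lst1, which lie in the same region of chromosome 17, differed in opposite directions. Aif1, the calcium-binding protein IBA1, had 71.8 in MatDup.dist7 cells and 141 in PatDup.dist7 cells (-0.84). Lst1, a leukocyte membrane protein gene, had 117 in MatDup.dist7 cells and 66.2 in PatDup.dist7 cells (0.69). Ms4a7, a tetraspan gene of mature macrophages, was under the filter, with 30.7 in MatDup.dist7 cells and 23.3 in PatDup.dist7 cells (0.25).

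The platelet chemokine genes showed the largest log2 differences of the set, and these had opposite signs. Ppbp (10523128) encodes the precursor of the neutrophil attractant CXCL7, and Pf4 (10523134) encodes platelet factor 4. Both proteins are stored in platelet alpha granules, and Pf4 is also transcribed in some mouse tissue macrophages. Ppbp had 459 in MatDup.dist7 cells and 24.0 in PatDup.dist7 cells, a log2 difference of 3.57 and an intensity ratio of 19.1. It stood at the 88.0th percentile of the MatDup.dist7 array and the 27.3rd of the PatDup.dist7 array. Pf4 had 93.9 in MatDup.dist7 cells and 298 in PatDup.dist7 cells, a log2 difference of -1.51 and an intensity ratio of 3.17, slightly under the 3.25 of Mrc1. Both stayed beyond 2-fold with pseudocounts of 1 and 64, at 4.20 and 2.57 for Ppbp and -1.66 and -1.20 for Pf4. Each value comes from 1 probe set on 1 array.

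Ppbp and Pf4 are direct neighbours on chromosome 5, within a run of 7 CXC chemokine genes. This run was chosen by position after the values were seen. Only Ppbp and Pf4 of the 7 passed 2-fold. Cxcl5, on the far side of Ppbp, had 240 in MatDup.dist7 cells and 190 in PatDup.dist7 cells (0.32). Cxcl3, on the far side of Pf4, had 153 in MatDup.dist7 cells and 227 in PatDup.dist7 cells (-0.53). Cxcl15 and Cxcl1 differed by 0.24 and 0.23, and Cxcl2 by -0.60. The promoters of the pair are shown because the adjacent genes differed in opposite directions. They are RefSeq windows on GRCm38.p6 of the same extent, both on the plus strand, chr5:90768268-90768567 for Ppbp and chr5:90772185-90772484 for Pf4. The core GAGGAA, in capitals, occurs once in the Pf4 window, on the reverse strand, and not in the Ppbp window.
Ppbp: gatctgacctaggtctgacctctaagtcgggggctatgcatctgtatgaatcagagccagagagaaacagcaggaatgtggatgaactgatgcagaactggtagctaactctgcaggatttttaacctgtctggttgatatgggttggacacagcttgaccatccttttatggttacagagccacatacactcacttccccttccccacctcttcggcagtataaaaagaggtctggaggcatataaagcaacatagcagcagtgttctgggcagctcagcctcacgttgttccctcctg
Pf4: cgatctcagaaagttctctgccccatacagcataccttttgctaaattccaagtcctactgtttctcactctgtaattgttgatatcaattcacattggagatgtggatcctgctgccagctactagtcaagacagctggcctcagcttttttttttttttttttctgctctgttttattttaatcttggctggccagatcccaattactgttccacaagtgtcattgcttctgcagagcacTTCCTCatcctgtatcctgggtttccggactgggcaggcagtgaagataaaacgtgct

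**Figure D3:**
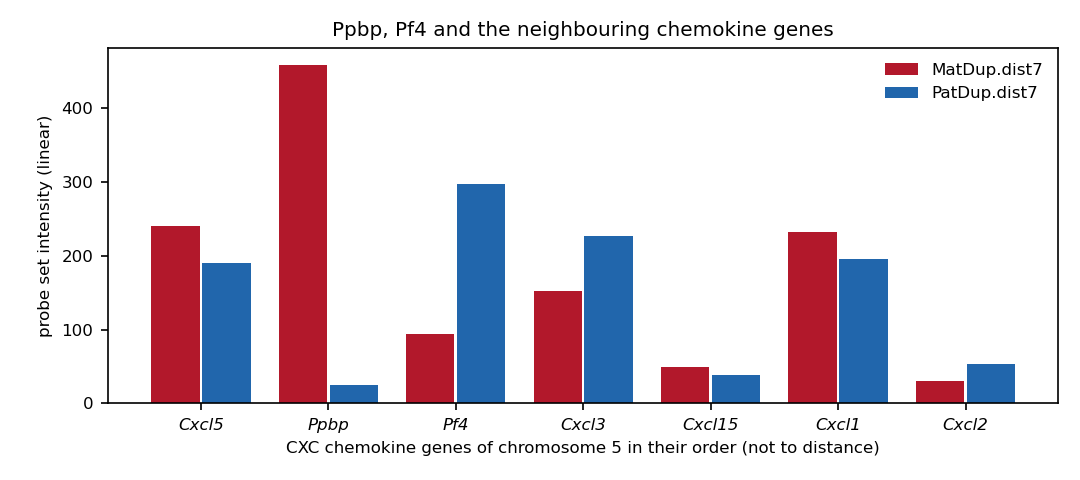
Linear intensity of the CXC chemokine genes of chromosome 5 in their order, MatDup.dist7 left and PatDup.dist7 right; bars can be compared within a gene, not between genes. Ppbp is higher in MatDup.dist7 (459 against 24.0 in PatDup.dist7), and its neighbour Pf4 is higher in PatDup.dist7 (298, with 93.9 in MatDup.dist7).

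Other megakaryocyte and platelet genes differed less than Ppbp and Pf4. Of 16 listed, 11 had a value, and 0 of these passed 2-fold in either direction. Of all genes, 4.47% passed it for MatDup.dist7 and 3.16% for PatDup.dist7, so 0 lies near the background in a list this short. With a pseudocount of 1, or with values floored at their 25th percentile, 1 gene of the list passed 2-fold. The median difference was -0.12. The median absolute difference was 0.49, against 0.38 for all genes. Gng11, a G protein subunit gene, had the largest difference above the filter, with 55.8 in MatDup.dist7 cells and 92.4 in PatDup.dist7 cells (-0.59). By sign, 5 of the 11 were higher in MatDup.dist7 cells and 6 in PatDup.dist7 cells. The list's summed intensity was 1778 in MatDup.dist7 cells and 1779 in PatDup.dist7 cells, and none of its genes was under 1. The largest part came from Tubb1, named after its value was seen, with 745 in MatDup.dist7 cells and 690 in PatDup.dist7 cells. The near-equal sums therefore say little about the other genes.

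Of the 35 genes, 4 lie on chromosome 7, whose distal part has a single parental origin in each genotype. In order along the chromosome Tyrobp holds place 466, Folr2 place 1037, Lyve1 place 1302 and Itgam place 1504 of 1734 measured genes. Igf2 and Cdkn1c of the distal imprinted cluster hold places 1695 and 1707. The labels give no breakpoint, so none of the 4 was assigned to the segment. Their differences, -0.26, 0.68, 0.75 and -0.43 in that order, had both signs and stayed within 2-fold.

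A wider list of 47 measured macrophage genes outside the 35 leaned towards PatDup.dist7. At 2-fold or more, 0 of them were higher in MatDup.dist7 cells and 7 (14.9%) in PatDup.dist7 cells, beside the 4.47% and 3.16% of all genes. The median difference was -0.17, and 28 of the 47 had a negative sign. The 14 fibroblast genes leaned the same way, so the lean was not particular to macrophage genes. Of them, 0 passed 2-fold in the direction of MatDup.dist7 and 2 (14.3%) in that of PatDup.dist7. Their median difference was -0.30, and 11 had a negative sign. Clec4n, which encodes the fungal pattern receptor dectin-2, had 145 in MatDup.dist7 cells and 407 in PatDup.dist7 cells (-1.39). Mertk, the receptor kinase for engulfment of apoptotic cells, had 83.5 in MatDup.dist7 cells and 219 in PatDup.dist7 cells (-1.24). The tetraspan genes Ms4a6b and Ms4a4a differed by -1.16 and -1.03. The other 3, named after their values were seen, were Ly86 (46.8 in MatDup.dist7 cells and 110 in PatDup.dist7 cells), Fcgr4 (21.4 in MatDup.dist7 cells and 59.0 in PatDup.dist7 cells) and Ccr1 (0.00347 in MatDup.dist7 cells and 16.7 in PatDup.dist7 cells), the last 2 under the filter. Of these 7 genes, 5 had differences between -1.16 and -1.01, and with a pseudocount of 64 only Clec4n passed 2-fold.

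**Figure D4:**
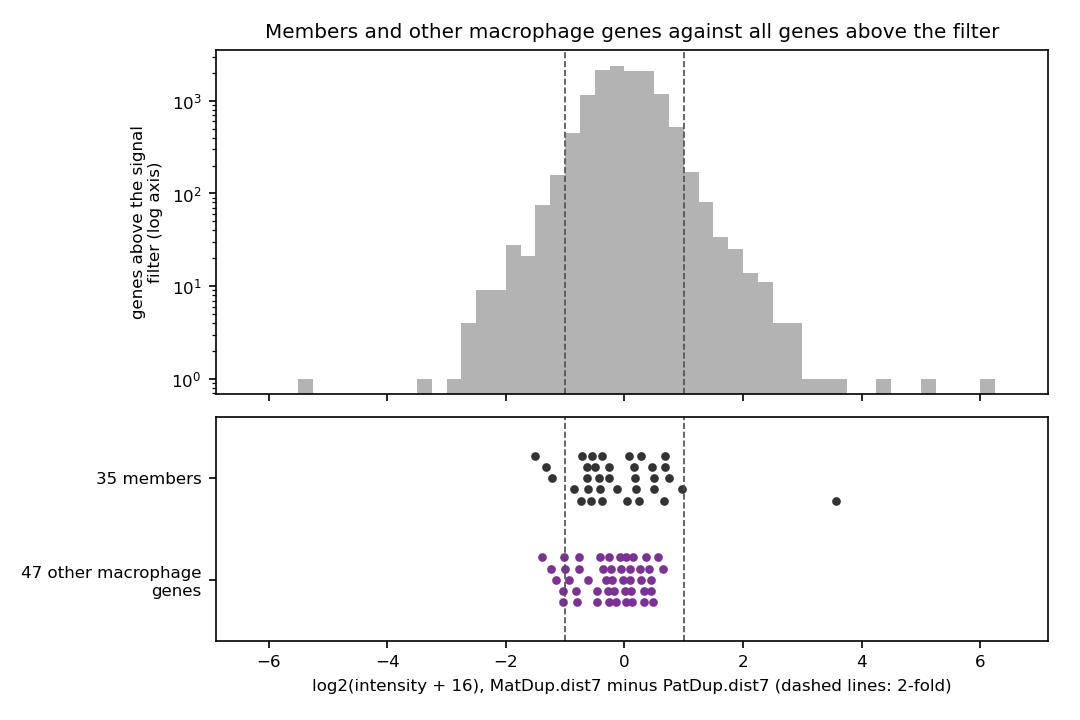
Upper panel: number of genes above the signal filter by difference, MatDup.dist7 minus PatDup.dist7 on the log2(intensity + 16) scale (log count axis). Lower panel: the 35 genes and the 47 other macrophage genes, 1 point each, spread vertically for visibility; all but Ppbp lie between -1.51 and 0.96, and 7 of the 47 lie beyond 2-fold on the PatDup.dist7 side.

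Families inside this wider list did not always share a direction. Among its C-type lectin genes of chromosome 6, Clec4d had 108 in MatDup.dist7 cells and 62.5 in PatDup.dist7 cells (0.66), against -1.39 for its relative Clec4n. Clec7a and Clec4e, both under the filter, differed by -0.82 and -0.03. Among its Ms4a genes, on chromosome 19, Ms4a6c differed by -0.77, in the same direction as Ms4a6b and Ms4a4a. Ms4a6d was nearly level (0.10). These relatives were named after their values were seen.

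Genes that act with the 35 stayed mostly within 2-fold. For these and the lists that follow, the background is again 4.47% of all genes in the direction of MatDup.dist7 and 3.16% in that of PatDup.dist7, and in lists this short a single gene exceeds it. Of the growth factors and transcription factors, 9 of 10 had a value and 0 passed 2-fold in either direction, while 3 did with a pseudocount of 1. Their median difference was -0.32, but 0 with values floored at their 25th percentile and 0.01 with probe sets under 1 left out. Csf1, the ligand of the Csf1r product that fibroblasts make, had 862 in MatDup.dist7 cells and 1081 in PatDup.dist7 cells (-0.32). Irf8, a partner of PU.1, had 42.4 in MatDup.dist7 cells and 91.9 in PatDup.dist7 cells (-0.89). Of 4 measured partners of the phagocyte oxidase 0 passed 2-fold. Ncf1, an organising subunit, was nearly level (-0.01), and the largest difference was that of Ncf4, with 110 in MatDup.dist7 cells and 167 in PatDup.dist7 cells (-0.54). Of 12 Toll-like receptor genes and partners 0 passed it, and Tlr3, a sensor of double-stranded RNA, had the largest difference above the filter (-0.74). With a pseudocount of 1 the number past 2-fold was 3, and with quantile normalisation or floored values it was 1.

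Genes of phagocytes with specialised functions included some of the widest differences. Gpnmb, a glycoprotein of lipid-laden macrophages and osteoclasts, had 186 in MatDup.dist7 cells and 544 in PatDup.dist7 cells (-1.47), the only gene of 10 in the lipid and lysosome list past 2-fold. Among 10 osteoclast genes 1 passed 2-fold in the direction of MatDup.dist7 (Oscar, under the filter and named after its value was seen, with 34.1 against 0.474 in PatDup.dist7) and 2 in that of PatDup.dist7. With a pseudocount of 64 the number past 2-fold was 1 in both directions together. Acp5, tartrate-resistant acid phosphatase, had 13.3 in MatDup.dist7 cells and 92.4 in PatDup.dist7 cells (-1.89). Ctsk, the collagen-degrading cathepsin K, had 74.0 in MatDup.dist7 cells and 194 in PatDup.dist7 cells (-1.22). Gpnmb and Ctsk are also transcribed in connective tissue cells. In the same direction, the fibroblast genes Postn (520 in MatDup.dist7 cells and 1788 in PatDup.dist7 cells) and Dcn (142 in MatDup.dist7 cells and 592 in PatDup.dist7 cells) differed by -1.75 and -1.95. The part of the fibroblast genes in these values was not tested.

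Markers of other blood cells gave mixed signals. Of 14 neutrophil genes 2 lay above the filter, 2 passed 2-fold in the direction of MatDup.dist7 and 1 in that of PatDup.dist7. In both directions together 1 passed it with floored values and with probe sets under 1 left out, and 0 with a pseudocount of 64. Csf3r, the receptor for the granulocyte growth factor, had 75.3 in MatDup.dist7 cells and 9.92 in PatDup.dist7 cells (1.82), and passed the filter only through the MatDup.dist7 array. Of 11 T and B lymphocyte genes 0 passed 2-fold, while 3 did with a pseudocount of 1 and 2 with floored values. Among 9 mast cell genes 0 passed 2-fold, while 3 did with a pseudocount of 1 and 1 with quantile normalisation. Kit, the stem cell factor receptor, differed by 0.65. Of 12 dendritic cell and antigen presentation genes 3 passed 2-fold in the direction of PatDup.dist7, all under the filter. Over both directions 7 passed it with a pseudocount of 1 and 0 with one of 64. The 3 were Cd74, the invariant chain (6.08 in MatDup.dist7 cells and 45.6 in PatDup.dist7 cells), H2-Ab1, a class II chain (8.59 in MatDup.dist7 cells and 49.0 in PatDup.dist7 cells), and the chemokine receptor gene Xcr1, named after their values were seen. Flt3, a growth factor receptor gene above the filter, differed by 0.52. In the lists with no gene above the filter past 2-fold, the largest differences above it were those of Cd8a for lymphocytes (-0.61), Vwf for endothelium (0.33) and Slc4a1 for erythroid cells (0.22).

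Of the 35 genes, 31 kept their side of the 2-fold line under all 8 settings for low signals, scaling and probe sets. All 35 kept their sign under these settings, which include the main one. Only quantile normalisation and centring could have reversed a sign. Changing the pseudocount or the floor keeps the order of the values of a probe set. Each gene has 1 probe set and no value under 1, so the settings for these could change nothing. Ppbp and Pf4 passed 2-fold in all of them, and 6 genes passed it in at least 1.

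**Figure D5:**
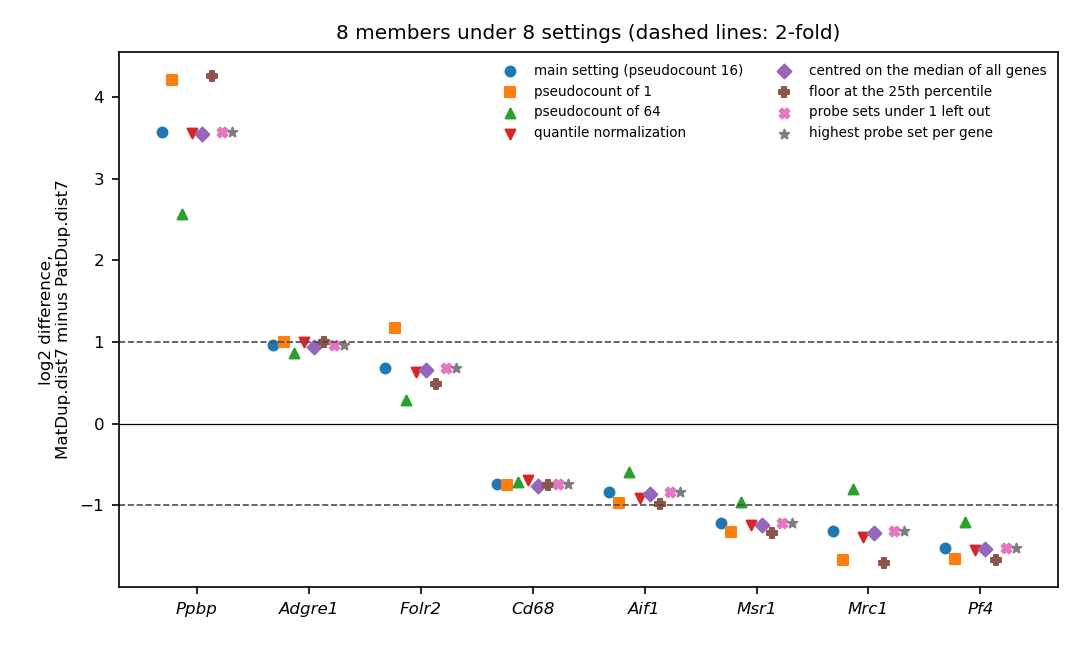
Log2 difference, MatDup.dist7 minus PatDup.dist7, of 8 genes under 8 settings for low signals, scaling and probe sets; dashed lines mark 2-fold. Ppbp (2.57 to 4.26) and Pf4 (-1.67 to -1.20) stay beyond the lines, while Mrc1 and Msr1 fall inside with a pseudocount of 64, and Adgre1 and Folr2 reach or cross the upper line in some settings.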

How the data were processed

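The data are 1 deposited table with 1 intensity per probe set for each of 2 arrays, 1 per genotype. The deposited intensities are linear, as their values show. Per the submitters' processing notes they were made with Affymetrix Expression Console; background correction, summarisation, normalisation and build are not given in the sources that were used. The number of arrays limits the precision, and no p-value was computed.

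Of 35557 probe sets, 21789 had 1 gene symbol in the platform annotation, 1621 several and 12147 none; the first were used. Current symbols and chromosomes came through gene identifiers from RefSeq (GRCm38.p6), where 21698 were found. No gene coordinates are printed, except promoter windows from RefSeq on that build. A further 3 probe sets that name Itgam together with Rpl35 were not used.

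log2(intensity + 16) was averaged over the probe sets of a gene, and the arrays were subtracted (Python 3.11.15, numpy 2.4.6, pandas 2.3.3). Genes at 2-fold or more were counted, and the counts of every list are given beside the shares of all genes. Percentiles are ranks among all probe sets of an array. The steps were tested on simulated arrays. Every one of the 35 genes is named. Of each other list, up to 4 genes are named. They are those with the largest differences among genes above the filter and past 2-fold, or the 1 with the largest. Further names are marked as chosen after their values were seen. Vim, Lum, Pdgfra, Esam, Csf1, Ncf1, Xist and Eif2s3y were also so chosen. The 35 genes and the lists were chosen with earlier results of these data known. Protein sequences were not used here.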

Additional observations from a re-analysis of the deposited data

How the results depend on the processing

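The counts of the 35 genes at 2-fold or more, 1 for MatDup.dist7 and 3 for PatDup.dist7, depended on how low signals were treated. With a pseudocount of 1 the number higher in MatDup.dist7 was 3 (2 above the signal filter), and with values floored at their 25th percentile it was 2, with or without the filter. With a pseudocount of 64 the number higher in PatDup.dist7 was 1, and with a 3-fold rule it was 0, with or without the filter; Ppbp alone passed 3-fold. The background moved with them: a pseudocount of 1 placed 10.9% of all genes past 2-fold on the MatDup.dist7 side and 8.55% on the PatDup.dist7 side, while a pseudocount of 64 placed 0.466% and 0.401% there. For the 47 other macrophage genes, the number higher in PatDup.dist7 was 1 with a pseudocount of 64 and 0 with a 3-fold rule, and the number higher in MatDup.dist7 was 1 with a pseudocount of 1. The cause was not tested. Quantile normalisation and centring left the counts of the 35 genes as they were. Leaving out probe sets under 1 and taking the highest probe set per gene could not change them. A filter at the 75th percentile kept 24 of the 35 genes, of which 1 was counted for MatDup.dist7 and 2 for PatDup.dist7. The median difference of the 35 genes stayed between -0.27 and -0.19. Where no filter applied, removing it gave no value of its own. No single gene that was at least 2-fold apart changed sign. For a gene of 1 probe set, a change of pseudocount or floor could not have reversed it.

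No paired analysis was possible because each genotype has 1 array. For the same reason no array was left out, and the spread between cultures is unknown. Every one of the 35 genes rests on 1 probe set, probe sequences were not used here, and the log2(intensity + 16) scale understates differences of dim genes.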
